A study of Mus musculus with 6 samples.

Results

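The thrombospondin family comprised 5 genes, Thbs1, Thbs2, Thbs3, Thbs4 and Comp (which encodes thrombospondin 5, cartilage oligomeric matrix protein), of 24062 gene symbols in the deposited table. They were taken by symbol, all 5 passed the filter on low counts, and 13629 genes were tested in all. RNA-seq counts came from both ventricles of male C57/Bl6N mice at 1 day of age (P1). There were 3 control libraries (CTL, labelled Cre-negative) and 3 libraries of mice with a heart-specific Med12 knockout (Med12cKO, labelled Cre-positive). The labels name neither the Cre driver nor the Med12 alleles of the controls, and they do not tie a library to 1 animal, so the spread between libraries may be partly technical. Cre was present only in the Med12cKO group, so an effect of Cre and one of Med12 loss cannot be told apart. The family was chosen by the difference between Med12cKO and control counts, since it was proposed with that comparison's results in view, so these differences are described and not tested.

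Thrombospondins are secreted, calcium-binding glycoproteins of the extracellular matrix that bind integrins, other cell-surface receptors, collagens and growth factors. Thbs1 and Thbs2 encode the trimeric subgroup, whose type 1 repeats bind CD36 and limit vessel growth. Thbs3, Thbs4 and Comp encode the pentameric subgroup, which lacks those repeats. In heart and skeletal muscle Thbs4 is known as a gene induced by load and injury, and its product has also been described inside the endoplasmic reticulum as a partner of the stress sensor ATF6.

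Thbs4 was about 2-fold higher in Med12cKO ventricles and was the only member whose groups did not overlap. Thbs1, Thbs2 and Thbs3 had group means that differed by less than the SD within Med12cKO, with the highest value in Med12cKO replicate 2 and the lowest in replicate 3. Comp, which like Thbs4 belongs to the pentameric subgroup, was high in Med12cKO replicate 3 alone. In bulk tissue, a change in the number of cells of a type and a change in RNA per cell cannot be told apart.

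Depth ran from 8453346 to 10911698 counts per library. For a count of 0, about 3 counts is an approximate upper bound on the expected count, for counting error only. In these libraries 3 counts were 0.275 to 0.355 CPM (counts scaled to a common library size). Values below are CPM scaled by TMM, edgeR's correction for library composition, as mean ± SD with n = 3 per group unless a library is named. Med12 (chromosome X, 101274030 to 101297465, GRCm38, plus strand) stood at 103, 176 and 113 CPM in the controls, in order of replicate, and at 61.6, 85.0 and 41.3 CPM in the Med12cKO libraries. Each Med12cKO library lay below each control (exact two-sided permutation test, p = 0.1, the smallest that 3 against 3 libraries allow). The table has 1 count per gene and does not separate exons inside and outside the deleted part. The 8 ventricular cardiomyocyte markers summed to 39435 to 51591 CPM in control and 31437 to 40327 CPM in Med12cKO libraries, none at 0. Thymus and T-cell markers summed to 787 CPM in control replicate 3 and 789 CPM in Med12cKO replicate 1, and to between 3.33 and 5.41 CPM in the other 4 libraries.

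Thbs4 lies on chromosome 13, 92751590 to 92794818 (GRCm38, minus strand), with 22 exon blocks. Its counts in order of replicate were 401, 637 and 542 in control and 796, 973 and 1141 in Med12cKO. On the TMM scale these were 46.1, 60.7 and 51.8 CPM in control and 89.8, 96.0 and 122.8 CPM in Med12cKO. All 3 Med12cKO libraries were above all 3 controls, and the lowest of them was 1.48 times the highest control. The means were 52.9 ± 7.33 and 102.9 ± 17.5 CPM, a log2 fold change of 0.96 (SE 0.16), and of 1.03 without the 2 libraries with thymus transcripts. The coefficient of variation was 13.9% in control and 17.1% in Med12cKO libraries, where counting error alone would give 4.42% and 3.24%. Its log2 fold change ranked 77 from the highest of 13629 genes tested, and 4 other genes among 4714 within 1 log2 unit of its mean level had one as high. No 50-base window of its transcripts occurred in a transcript of another gene, so its counts are not shared with a near-identical copy at that length.

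**Figure D1:**
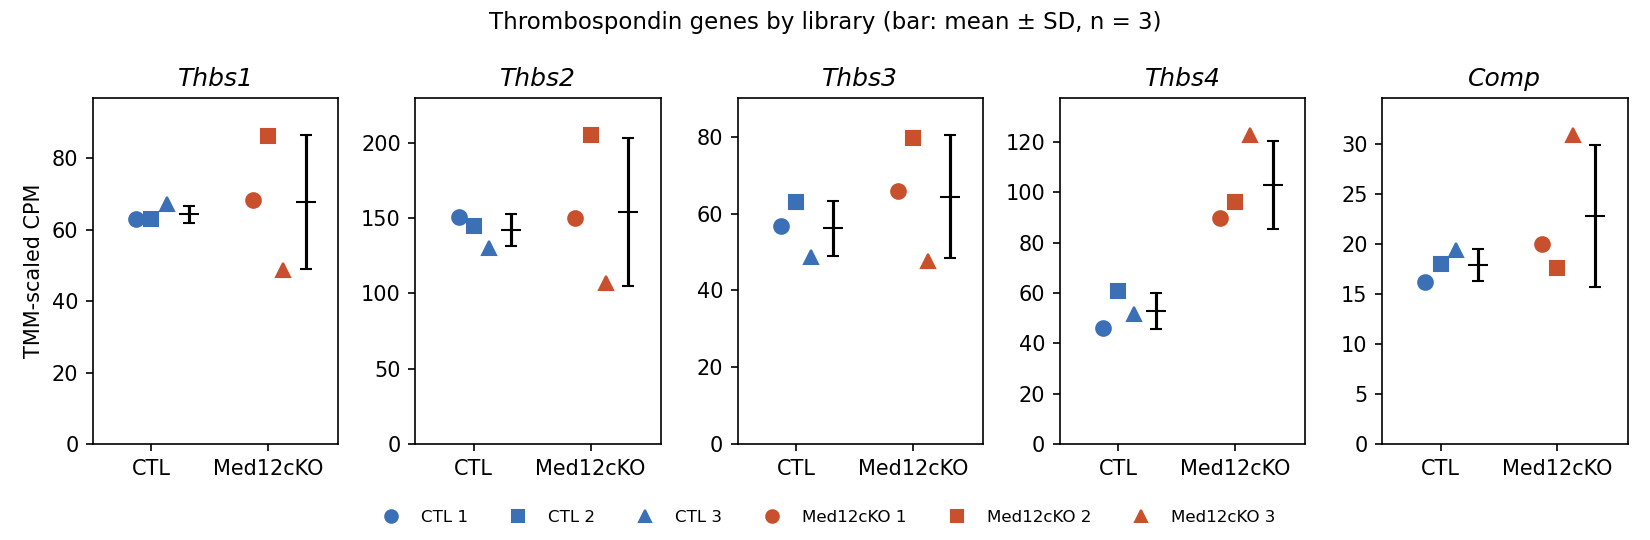
TMM-scaled CPM (y axis, from 0) of each thrombospondin gene in the 3 CTL and 3 Med12cKO libraries, one panel per gene, with the mean ± SD beside each group. The Med12cKO values of Thbs4 (89.8 to 122.8 CPM) all lie above its control values (46.1 to 60.7 CPM), and in the other 4 panels the groups overlap.

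With the fit over all genes, 0 of the 5 members passed edgeR's quasi-likelihood test at an adjusted p under 0.05, where 0.00734% of all genes tested passed upward and 0.0147% downward. At an unadjusted p under 0.05 it was 1 of 5 upward, Thbs4, and 0 downward, against 2.16% and 1.61% of all genes. DESeq2 called 1 of 5 upward, again Thbs4, and 0 downward, against 0.235% and 0.242% of all genes tested. Limma-voom called 0 of 5, against 0.00734% upward and 0.0147% downward. The groups did not overlap upward in 1 of 5 members and downward in 0, against 4.59% and 3.64% of all genes. These counts carry no weight for the family, because it was proposed with this comparison in view. All 5 members had a log2 fold change above 0, with a median of 0.20, beside 52.2% above 0 and a median of 0.01 over all genes tested.

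The other members of the pentameric subgroup were less separated. Comp, a matrix protein of cartilage and tendon (chromosome 8, 70373558 to 70382066, plus strand), measured 16.2, 18.01 and 19.4 CPM in control and 19.96, 17.6 and 30.9 CPM in Med12cKO replicates 1 to 3. Med12cKO replicate 3 stood apart, and replicate 2 lay within the control range. The means were 17.9 ± 1.598 and 22.8 ± 7.10 CPM, a log2 fold change of 0.35 (SE 0.22), which was 0.07 without Med12cKO replicate 3. Comp had the lowest counts of the family (141 to 287 per library), and counting error alone would give a coefficient of variation of 7.57% in control libraries, close to the 8.94% observed.

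Thbs3 (chromosome 3, 89215180 to 89226837, plus strand), the third pentameric gene, measured 56.9, 63.0 and 48.6 CPM in control and 66.0, 79.6 and 47.7 CPM in Med12cKO replicates 1 to 3. The highest and the lowest of the 6 values were both Med12cKO libraries. The means were 56.1 ± 7.22 and 64.4 ± 16.03 CPM, a log2 fold change of 0.20 (SE 0.19), which ran from 0.02 without Med12cKO replicate 2 to 0.37 without replicate 3. Of its exon bases, 6.59% (318 bases) are shared with Mtx1, which encodes a mitochondrial import protein and runs antisense to it, and no source used here says whether reads were counted by strand. Mtx1 itself had 28.0 ± 3.66 CPM in control against 28.7 ± 6.002 CPM in Med12cKO.

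The trimeric subgroup showed the same order of Med12cKO libraries as Thbs3. Thbs2 (chromosome 17, 14665500 to 14694235, minus strand), a fibroblast product that takes part in collagen fibril assembly, measured 150.8, 144.7 and 130.4 CPM in control and 149.98, 205.0 and 107.1 CPM in Med12cKO replicates 1 to 3. Its control libraries lay close together, while Med12cKO replicate 2 was the highest and replicate 3 the lowest of the 6. The means were 141.9 ± 10.5 and 154.0 ± 49.1 CPM, a log2 fold change of 0.12 (SE 0.21).

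Thbs1 (chromosome 2, 118111876 to 118127133, plus strand), which encodes an activator of latent TGF-beta that is also stored in platelets, measured 62.9, 63.0 and 67.0 CPM in control and 68.2, 86.1 and 48.6 CPM in Med12cKO replicates 1 to 3. The control libraries varied by 3.67%, near the 3.98% of counting error alone, and the Med12cKO libraries by 27.7%, against 4.05% from counting. The means were 64.3 ± 2.36 and 67.7 ± 18.8 CPM, a log2 fold change of 0.07 (SE 0.19). Without Med12cKO replicate 2 the log2 fold changes of Thbs1 and Thbs2 were −0.14 and −0.14, and without replicate 3 they were 0.26 and 0.32. The direction of these 2 genes therefore depended on which Med12cKO library was included. Of the 50-base windows in Thbs1 transcripts 1.89% also occur in the antisense transcript Gm29233, and no window was shared between any of the 5 members.

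**Figure D2:**
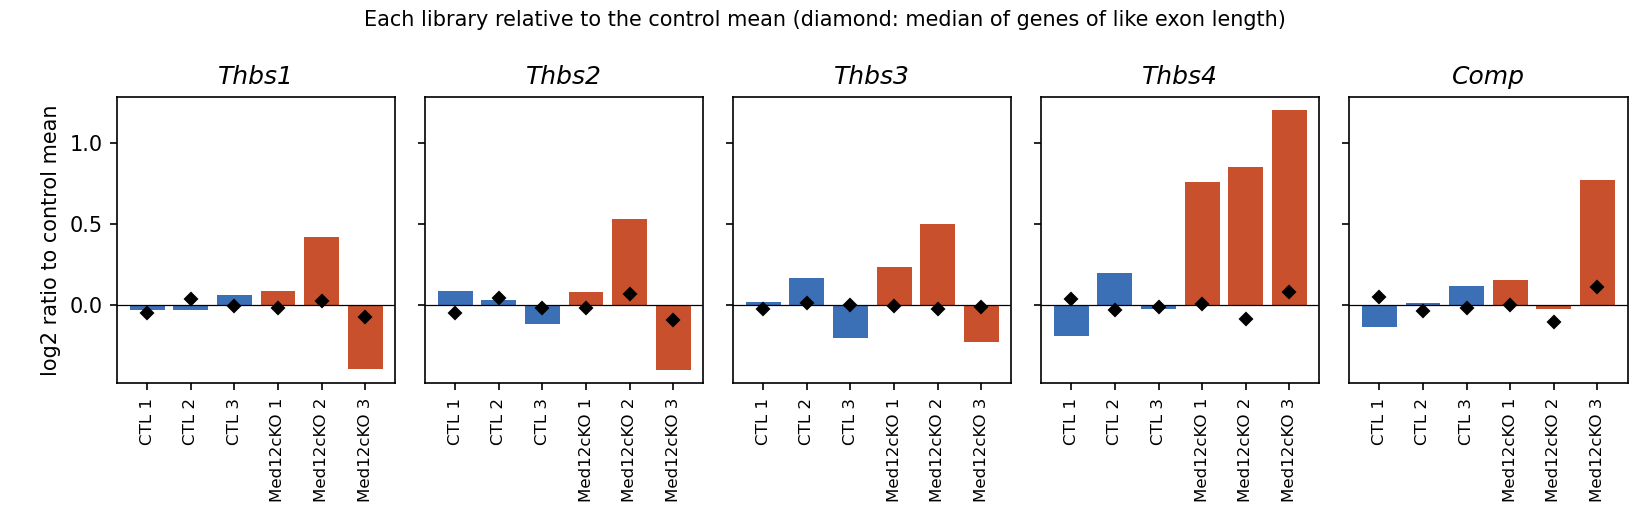
Log2 ratio of each library to the control mean (y axis, with 0.5 CPM added to both) for each member, with CTL bars in blue and Med12cKO bars in orange; diamonds are the median of genes of like exon length. Thbs1, Thbs2 and Thbs3 are highest in Med12cKO replicate 2 and lowest in replicate 3, whereas Thbs4 and Comp are highest in replicate 3.

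Med12cKO replicates 2 and 3 therefore lay at opposite ends for Thbs1, Thbs2 and Thbs3, and within Med12cKO Thbs4 was highest in replicate 3, where those 3 genes were lowest. Relative to the control mean, Thbs2 stood at a log2 ratio of 0.53 in replicate 2 and −0.41 in replicate 3, and Thbs4 at 0.85 and 1.21. Genes whose exon length was within 1.2 times that of Thbs2 had medians of 0.07 and −0.10 in these libraries, and genes of the length of Thbs4 had −0.09 and 0.08. After the like-length median was subtracted in each library, the Med12cKO minus control difference of Thbs4 was 0.95, and its Med12cKO range of 0.76 to 1.13 lay above its control range of −0.23 to 0.23. Cardiac fibroblast markers (7 of 7 detected) summed to 7898, 7482 and 4996 CPM in Med12cKO replicates 1 to 3, and to 5877 to 6830 CPM in control. Without their most abundant marker Col3a1 they summed to 3388, 2885 and 2304 CPM in Med12cKO replicates 1 to 3. That reduced sum was 2482 to 2963 CPM in control, a range that held Med12cKO replicate 2. The part of these fibroblast marker differences in the values of Thbs1, Thbs2 and Thbs3 was not tested.

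**Figure D3:**
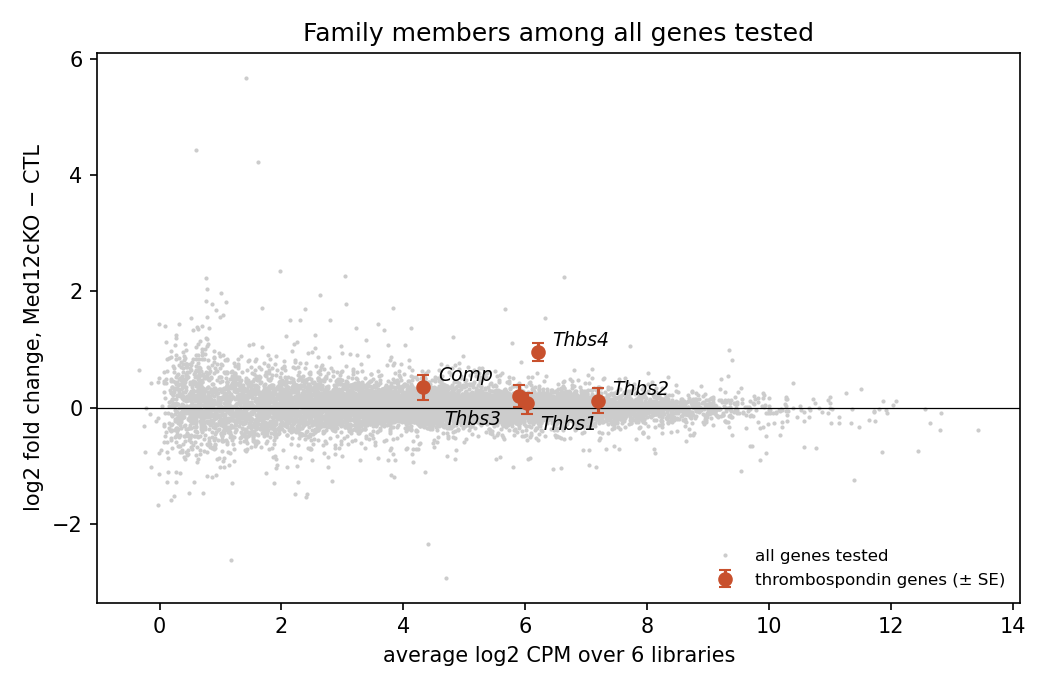
Log2 fold change, Med12cKO minus control (y axis), against average log2 CPM over the 6 libraries (x axis) for all 13629 genes tested in grey and the 5 thrombospondin genes in orange with SE bars. Thbs4 lies at 0.96, and the other 4 members lie between 0.07 and 0.35.

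Levels can be compared between members only per exon length, for which TMM-scaled CPM was divided by the collapsed exon length in kilobases. In control ventricles Thbs2 had the highest level at 20.3 ± 1.496 CPM per kb, followed by Thbs4 at 16.1 ± 2.23, Thbs3 at 11.6 ± 1.497, Thbs1 at 10.6 ± 0.39 and Comp at 6.03 ± 0.54 CPM per kb. The levels of Thbs3 (10.1 to 13.1 CPM per kb) and Thbs1 (10.4 to 11.04) overlapped, and the other neighbours in this order did not, although Thbs4 reached 18.5 where Thbs2 began at 18.6. In Med12cKO ventricles Thbs4 stood first at 31.3 ± 5.33 CPM per kb, with Thbs2 at 22.0 ± 7.01, Thbs3 at 13.4 ± 3.32, Thbs1 at 11.1 ± 3.09 and Comp at 7.69 ± 2.39 CPM per kb. There every pair of neighbours overlapped, and in replicate 2 Thbs2 (29.3) was level with Thbs4 (29.2 CPM per kb). With the longest transcript as the length, the mean over the 6 libraries was 25.1 CPM per kb for Thbs2 and 24.4 for Thbs4, the reverse of the 21.1 and 23.7 on collapsed exons.

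Thbs4 made up 22.2% to 26.9% of the summed family level in control libraries and 30.7% to 46.1% in Med12cKO libraries. The family sum was 62.0 to 68.6 CPM per kb in control and 80.3 to 95.1 in Med12cKO. Without Thbs4 it was 46.3 to 50.2 CPM per kb in control and 53.1, 65.9 and 43.6 in Med12cKO replicates 1 to 3, and the groups overlapped.

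**Figure D4:**
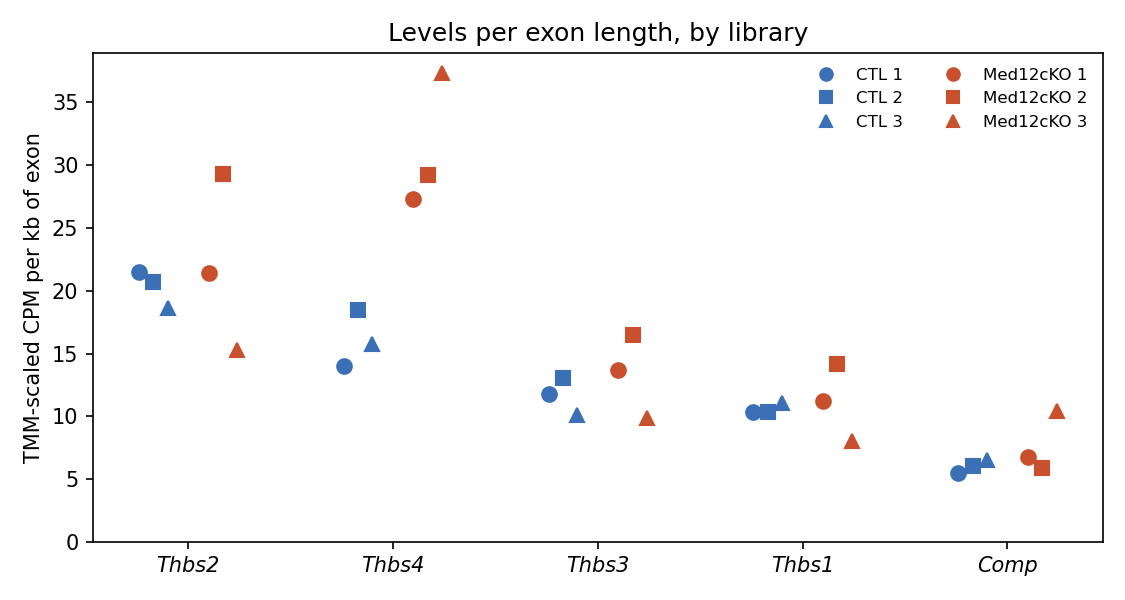
TMM-scaled CPM per kb of collapsed exon (y axis, from 0) for each member, ordered by its control mean, with each library as a point (CTL blue, Med12cKO orange). Thbs4 is second to Thbs2 in the 3 controls and at 27.3 to 37.3 CPM per kb in Med12cKO libraries.

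The 250 bases before the start site are printed for the 3 of 5 members with an entry in the RefSeq promoter table (GRCm38.p6), to set Thbs4 beside 2 members whose groups overlapped. Each is 5′ to 3′ on the gene's strand, and capitals mark matches to any of 7 motifs searched on both strands.
Thbs4, chr13:92794819-92795068, minus strand: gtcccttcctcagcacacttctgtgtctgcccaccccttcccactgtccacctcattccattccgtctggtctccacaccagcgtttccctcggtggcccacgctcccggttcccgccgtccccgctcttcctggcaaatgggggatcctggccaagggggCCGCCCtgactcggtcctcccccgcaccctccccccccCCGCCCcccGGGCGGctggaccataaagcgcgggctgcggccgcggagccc
Thbs2, chr17:14694263-14694512, minus strand: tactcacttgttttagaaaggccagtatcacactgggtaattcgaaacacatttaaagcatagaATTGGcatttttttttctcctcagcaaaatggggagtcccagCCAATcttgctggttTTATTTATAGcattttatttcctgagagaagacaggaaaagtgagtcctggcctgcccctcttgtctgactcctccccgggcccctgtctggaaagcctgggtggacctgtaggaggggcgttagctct
Thbs3, chr3:89214930-89215179, plus strand: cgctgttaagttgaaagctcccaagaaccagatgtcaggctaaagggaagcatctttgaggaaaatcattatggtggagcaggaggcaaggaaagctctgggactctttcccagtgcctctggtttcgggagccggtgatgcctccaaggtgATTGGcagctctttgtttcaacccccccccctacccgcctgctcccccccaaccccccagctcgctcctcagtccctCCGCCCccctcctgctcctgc

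The motifs were those of MEF2, the CArG box of serum response factor, AP-1 (TGANTCA), the CCAAT box, TATAAA, the GC box GGGCGG and the endoplasmic reticulum stress element, which is CCAAT and CCACG with 9 bases between them. The Thbs4 window held 3 GC box matches, within 89 to 37 bases before the start, and none of the other motifs. Of all 32851 windows of that length in the table, 32.7% held a GC box match. The Thbs2 window held a MEF2 match 129 to 120 bases before the start (2.92% of all windows), with a TATAAA match on the other strand inside it (12.4%), and 2 CCAAT matches (33.8%). The Thbs3 window held 1 CCAAT and 1 GC box match. No window held a match to the CArG box (1.47% of all windows), AP-1 (6.75%) or the endoplasmic reticulum stress element (0.113%). The GC content was 70.8% for Thbs4, 58.8% for Thbs3 and 46.8% for Thbs2, against a median of 52.4% over all windows. These matches describe letters in the window and no binding.

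The genes around the family showed no call. Of 127 genes in 8 lists of receptors, partners and pathways, 122 were tested, and 0 passed edgeR or DESeq2 in either direction over all genes. At an unadjusted p under 0.05 edgeR gave 4 higher and 4 lower, 6.56% of them, against 3.78% of all genes tested. The groups did not overlap in 6 upward and 4 downward, 8.2% of them, against 8.23% of all genes. None of the 122 had a log2 fold change as high as that of Thbs4, and 0.558% of all genes tested had a higher one. This comparison carries no weight, because Thbs4 was among the genes chosen with these results in view. The largest change of either sign among the 122 genes was that of Spp1, at −1.02.

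Among 23 receptors and cell-surface partners, 14 had a positive log2 fold change (median 0.09) and 0 passed the test. Cd36, the type 1 repeat receptor and a fatty acid transporter, averaged 1161 ± 198 CPM in control and 1131 ± 69.1 CPM in Med12cKO. Cd47, which binds the carboxy-terminal domain, measured 37.4 ± 4.95 and 35.8 ± 1.35 CPM. The integrin subunit gene Itgav measured 54.4 to 60.2 CPM in control and 71.5 to 84.8 CPM in Med12cKO, with no overlap (log2 fold change 0.43, SE 0.12), and it missed edgeR's threshold with an adjusted p of 0.550. Its partner subunits Itgb3 (18.3 ± 1.71 and 21.2 ± 7.57 CPM) and Itgb1 (805 ± 47.2 and 920 ± 118 CPM) overlapped between the groups. Cacna2d1, a calcium channel subunit that binds thrombospondins, measured 84.1 to 97.2 CPM in control and 100.2 to 122.3 CPM in Med12cKO (log2 fold change 0.22, SE 0.13), without passing. Itga9, another integrin subunit gene, also had groups that did not overlap, at 83.5 to 111 CPM in control and 116 to 183 CPM in Med12cKO (log2 fold change 0.48), and did not pass. The lipoprotein receptor gene Vldlr was the 1 receptor gene whose Med12cKO values all lay lower, at 204 to 223 CPM in control and 145 to 200 CPM in Med12cKO (log2 fold change −0.36), also without passing. Lrp1, the endocytic receptor that clears thrombospondins, measured 188 ± 39.5 and 187 ± 32.7 CPM, and Calr, its co-receptor at the cell surface and an endoplasmic reticulum chaperone, 487 ± 55.2 and 534 ± 6.37 CPM.

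Of 21 matrix and secreted binding partners tested, 0 passed, and the median log2 fold change was 0.10. The fibronectin gene Fn1 measured 1052 ± 126 and 1028 ± 241 CPM, Tgfb1 38.2 ± 6.64 and 34.5 ± 7.13 CPM, and the gelatinase genes Mmp2 293 ± 9.16 and 313 ± 14.6 CPM and Mmp9 5.59 ± 4.41 and 4.95 ± 5.28 CPM. The proteases that cut thrombospondins were 4, with a median of −0.02. Adamts1 measured 93.2 ± 11.9 and 91.6 ± 31.3 CPM, Adamts7 80.9 ± 13.5 and 80.0 ± 10.5 CPM, and Adamts12 6.59 ± 1.98 and 6.69 ± 4.07 CPM. The groups overlapped in each of these 7 genes. In the matrix list 2 genes had groups that did not overlap, and neither passed. Vcan, which encodes the proteoglycan versican, measured 113 to 144 CPM in control and 147 to 199 CPM in Med12cKO (log2 fold change 0.35). Vegfa, an angiogenic growth factor gene, lay lower, at 306 to 389 CPM in control and 247 to 287 CPM in Med12cKO (log2 fold change −0.43).

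Among 15 other matricellular genes 0 passed, and the median log2 fold change was 0.05. Sparc measured 2058 to 2504 CPM in control and 2626 to 2704 CPM in Med12cKO (log2 fold change 0.25, SE 0.15), with no overlap. Spp1, which encodes osteopontin, was low throughout, at 2.69 ± 0.41 and 1.32 ± 0.38 CPM, and its groups did not overlap, with Med12cKO lower. Its log2 fold change was −1.02 (SE 0.34) at an adjusted p of 0.912 in edgeR. Ctgf measured 109 ± 17.5 and 161 ± 47.7 CPM, Cyr61 43.9 ± 5.50 and 51.5 ± 11.7 CPM, Postn 1207 ± 91.6 and 1336 ± 332 CPM, and Tnc 93.0 ± 26.7 and 106 ± 55.9 CPM, each with overlapping groups.

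Of 20 genes for ATF6 and its chaperone targets 16 had a positive log2 fold change, with a median of 0.13 against 0.01 over all genes tested, and 0 passed. None of them had an unadjusted p under 0.05 or groups that did not overlap. Atf6 had 119 ± 8.91 and 135 ± 24.6 CPM in control and Med12cKO ventricles, and the chaperone gene Hspa5 512 ± 92.8 and 578 ± 89.3 CPM. Creld2 measured 22.7 ± 3.72 and 25.0 ± 0.36 CPM, and Sdf2l1 6.66 ± 1.93 and 7.79 ± 0.52 CPM. Of 15 TGF-beta response and pathway genes 4 had a positive log2 fold change (median −0.10) and 0 passed. This list also holds the receptor genes Tgfbr1 and Tgfbr2 and the signalling genes Smad2, Smad3 and Smad4. Smad7, which encodes an inhibitor of TGF-beta signalling, measured 37.7 ± 3.48 and 31.5 ± 5.97 CPM. The medians were −0.05 for 7 nitric oxide and cGMP genes and 0.05 for 19 other genes with type 1 repeats, with 0 passing in either list. Bhlhe40 of the TGF-beta list did not overlap, at 45.3 to 50.2 CPM in control and 38.3 to 44.8 CPM in Med12cKO. Adamtsl5 of the type 1 repeat list did not overlap either, at 30.6 to 43.4 CPM in control and 44.4 to 45.1 CPM in Med12cKO.

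**Figure D5:**
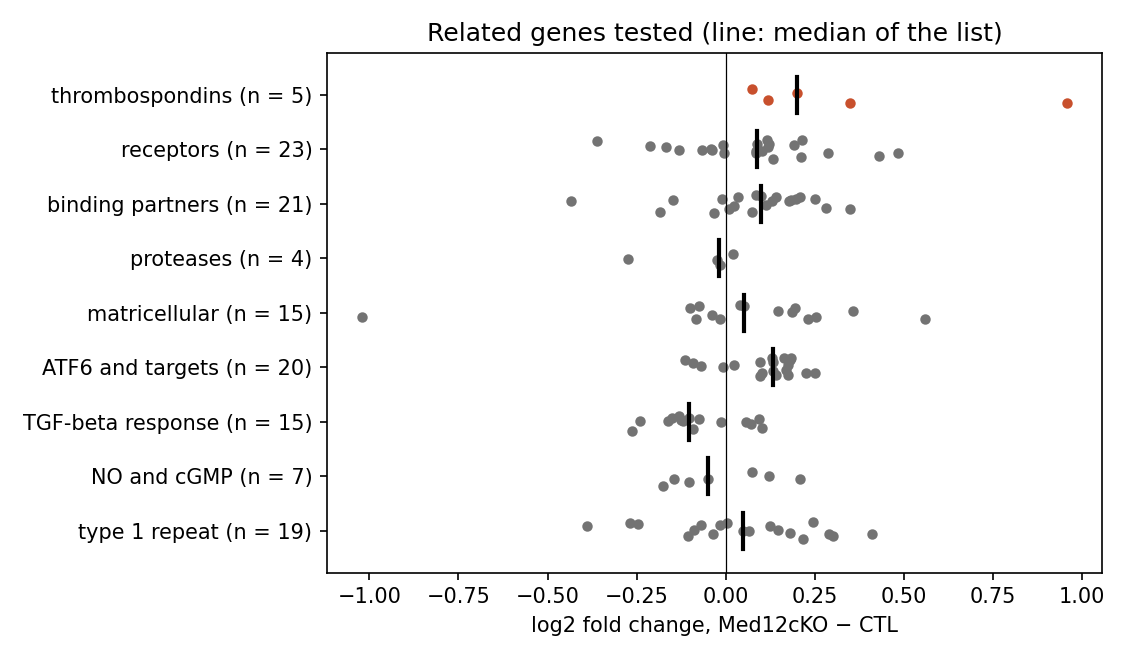
Log2 fold change, Med12cKO minus control (x axis), of each gene tested in the family (orange) and in 8 lists of related genes (grey), with the median of each list as a line. Thbs4 at 0.96 lies beyond every grey point on the positive side, where 0.558% of all genes tested lie higher. List medians lie between −0.10 and 0.13.

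Markers of 12 cell types and tissues were summed in each library, and 11 of the 12 sums overlapped between the groups, although single markers moved. Without its most abundant marker Nppa, the atrial list summed to 2001 to 2616 CPM in control and 1625 to 1816 CPM in Med12cKO. Those reduced atrial sums did not overlap, and Nppa, left out of them, had a log2 fold change of 0.18. Of 6 tendon markers 4 averaged under 1 CPM, among them Tnmd at 0.27 ± 0.10 and 0.31 ± 0.08 CPM, and the list summed to 44.0 to 65.8 CPM in control and 33.2 to 70.8 CPM in Med12cKO, most of it Fmod. Of 9 cartilage markers 2 averaged under 1 CPM, none was at 0 in all libraries, and the list summed to 57.7 to 60.7 CPM in control and 60.8 to 83.4 CPM in Med12cKO. This was the 1 marker list whose full sums did not overlap. Its defining collagen gene Col2a1 measured 1.57 ± 0.33 and 1.67 ± 0.35 CPM, and Sox9, a transcription factor gene of the list, 18.5 ± 1.84 and 18.3 ± 1.23 CPM. Col11a1, another collagen gene, was the 1 cartilage marker tested whose groups did not overlap, at 16.9 to 20.1 CPM in control and 20.7 to 28.5 CPM in Med12cKO (log2 fold change 0.36), and it did not pass. Without Col11a1 the sums overlapped. Chad, a cartilage matrix gene below the filter, was at 0.29 to 0.46 CPM in control and at 0.45, 5.62 and 0.86 CPM in Med12cKO replicates 1 to 3. Med12cKO replicate 2 had the highest cartilage sum and replicates 1 and 3 were at 60.8 and 61.0 CPM. Comp and Thbs4 were highest in replicate 3. The part of cartilage or tendon cells in the values of Comp and Thbs4 was not tested. Platelet markers summed to 20.5 to 30.3 CPM in control and 21.4 to 26.3 CPM in Med12cKO, with the platelet chemokine gene Pf4 at 12.1 ± 4.46 and 11.02 ± 1.33 CPM.

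Other marker genes moved with the groups beside Thbs4. Smooth muscle and pericyte markers summed to 966 to 1530 CPM in control and 1497 to 2347 CPM in Med12cKO. Of the 9, 6 had a positive log2 fold change, beside 52.2% of all genes tested. Upward, 1 of the 9 passed edgeR's adjusted threshold, against 0.00734% of all genes tested. This was Cnn1, which encodes the actin-binding protein calponin and was the 1 gene of all tested that edgeR called higher (adjusted p = 0.046 in edgeR and 4.63e-12 in DESeq2). It measured 34.2, 23.9 and 27.2 CPM in control and 74.9, 116 and 84.7 CPM in Med12cKO replicates 1 to 3, a log2 fold change of 1.70 (SE 0.20). With DESeq2's size factors or the replicate block, and without CTL replicate 1 or Med12cKO replicate 3, edgeR called 0 genes higher. Acta2 and Tagln, genes of the smooth muscle contractile apparatus, had log2 fold changes of 0.99 and 0.67 with overlapping groups and did not pass. The list's median was 0.08, and Kcnj8, a pericyte potassium channel gene, lay lower in all Med12cKO libraries (log2 fold change −0.31) without passing.

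All 8 ventricular cardiomyocyte markers had a negative log2 fold change, with a median of −0.32, where 52.2% of all genes tested were above 0. Ryr2, the calcium release channel gene, averaged 1299 ± 138 CPM over the control and 758 ± 124 CPM over the Med12cKO libraries, with an adjusted p of 0.300 in edgeR and 0.000171 in DESeq2. The myosin gene Myh7 measured 4348 ± 2154 and 1836 ± 622 CPM without passing either test, and its groups did not overlap. Of 6 atrial markers 2 passed downward in DESeq2, against 0.242% of all genes tested, and not in edgeR. They were the atrial light chain gene Myl7 (1097 ± 175 and 512 ± 89.4 CPM) and the connexin gene Gja5 (186 ± 23.1 and 93.2 ± 10.5 CPM). Nppa and Myl4 were the 2 atrial markers with a positive log2 fold change, 0.18 and 0.16, each with overlapping groups. Of 9 skeletal muscle markers tested 8 had a positive log2 fold change, beside 52.2% of all genes tested. Their median was 1.38, with 0 passing in edgeR or DESeq2. The 10 skeletal muscle markers other than Ckm, which heart muscle also expresses, summed to 206 CPM in Med12cKO replicate 1 and to 33.5 to 45.4 CPM in the other 5 libraries. Thbs4 was lowest of the Med12cKO libraries in that replicate, and its log2 fold change without it was 1.03. The part of the smooth muscle, ventricular, atrial and skeletal muscle marker differences in the difference of Thbs4 was not tested.

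Genes with the most similar pattern over the 6 libraries were sought among 12864 genes with a mean log2 CPM of at least 1, by Pearson's r of log2 CPM. The libraries share groups and depth, so these values are descriptions. For Thbs4 they were Inpp5j (r = 0.990), which encodes an inositol phosphatase, Morn4 (0.984) and the nuclear receptor gene Esrrb (0.982), and 91 genes had r above 0.9. Inpp5j measured 38.6, 42.2 and 37.8 CPM in control and 54.7, 56.5 and 63.6 CPM in Med12cKO replicates 1 to 3, the same order of Med12cKO libraries as Thbs4. For Thbs2 they were Pknox2 (0.999), Antxr1 (0.995) and Pdgfra (0.993), a fibroblast marker that measured 75.0, 90.1 and 56.2 CPM in Med12cKO replicates 1 to 3. Among Med12cKO libraries the fibroblast markers Col3a1, Lum and Dpt were also highest in replicate 2. The fibroblast markers Tcf21, Col1a1 and Dcn were instead highest in replicate 1. For Thbs1 the most similar genes were Ddx3x (0.998), Col28a1 (0.996) and Ranbp2 (0.994), for Thbs3 Tmod2 (0.997), Syt15 (0.993) and D630045J12Rik (0.991), and for Comp 1110019D14Rik (0.994), Bcar1 (0.993) and Stoml1 (0.986). With 289 to 385 genes above r = 0.9 for each of Thbs1, Thbs2 and Thbs3, and 136 for Comp, such likeness was common in these libraries.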

How the data were processed

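The deposited table gives unnormalized whole-number counts of reads for each gene symbol. TopHat2 2.0.0, featureCounts, edgeR 3.14.0 and GRCm38 (mm10) are named, per the submitters' processing notes. No annotation, strand setting or read length is given in the sources used here. Groups and replicate numbers came from the sample titles, and columns were matched to samples by their descriptions.

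Counts were tested with edgeR 4.0.16 in R 4.3.3 (quasi-likelihood F test with robust dispersions, TMM, and filterByExpr at 10 counts per library and 15 in total), with Benjamini-Hochberg over all genes tested and a threshold of 0.05. Each SE was obtained from the fold change and its F value. DESeq2 1.42.0, limma-voom (limma 3.58.1), other scalings and filters, blocks and left-out libraries were alternatives, and the tests were tested on simulated data. Levels per length used collapsed exons of GENCODE M21 (GRCm38). No 2 libraries of a group agreed within sampling noise (15.3 to 31.04 chi-square units per degree of freedom). The members, lists and tests were chosen with earlier results of these data known. Named genes were all members, Med12, list genes picked by role, and the 3 genes most like each member. Itgav, Itgb3 and the other list genes were named by role, and Cnn1 by its adjusted p. The marker genes Col2a1, Tnmd, Pf4 and others, with Itga9, Vldlr, Vcan, Vegfa, Bhlhe40 and Adamtsl5, were named after their values were seen. Intervals for counts cover counting error only.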

Additional observations from a re-analysis of the deposited data

How the results depend on the processing

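Under 10 other choices of tool, scaling, filter, block and subset, the 6 fits without 1 library, and the like-length subtraction added after the data were seen, the log2 fold change of Thbs4 lay between 0.81 and 1.07. Leaving out 1 library gave 0.81 to 1.07 for Thbs4, 0.07 to 0.51 for Comp, 0.02 to 0.37 for Thbs3, −0.14 to 0.32 for Thbs2 and −0.14 to 0.26 for Thbs1. In the 4 libraries with the letter I at the start of their description, Thbs1 and Thbs2 were at −0.14 and −0.09. Each of these shifts was smaller than the member's log2 SD within groups pooled over both groups (0.22 for Thbs4 to 0.34 for Thbs2), but those of Thbs1, Thbs2 and Comp exceeded the control SD alone (0.05, 0.11 and 0.13). Without both libraries with thymus transcripts Comp was at 0.49, Thbs3 at 0.08, Thbs2 at 0.07 and Thbs1 at 0.09. Thbs4 passed an adjusted p under 0.05 in DESeq2 and in none of the other 15 alternative fits. DESeq2 also gave Med12 an adjusted p of 0.025 (log2 fold change −1.06), whereas edgeR gave it 0.765 and limma-voom 0.576. Over all genes edgeR called 1 higher and 2 lower, and DESeq2 32 and 33. The number higher was 0 with DESeq2's size factors, 2 with library totals only, 0 with the replicate block, 0 in the letter I libraries (1 lower there) and 2 without the libraries with thymus transcripts. It was 0 to 1 higher and 1 to 2 lower in the fits without 1 library, with 0 higher without CTL replicate 1, and 0 higher and 1 lower without Med12cKO replicate 3. The deviations of same-numbered libraries from their group means had correlations of −0.31, 0.44 and −0.35. The highest correlation, 0.71, was between the 2 libraries with thymus transcripts, CTL replicate 3 and Med12cKO replicate 1. Those transcripts enter the correlations, which therefore cannot decide whether the numbers pair the samples. Related genes passed in none of these fits.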
